A study of Mus musculus with 20 samples.

Results

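Brain stem-diencephalon of mice lacking NHE1 was compared with the same region of wild-type mice on 5 of the 20 cDNA arrays of the series. The 5 arrays were taken by their titles: arrays 1, 2 and 3, and the dye-swapped arrays 1 and 2. Each array carried amplified RNA of the null mutant in one channel and pooled wild-type RNA of that region in the other. The null RNA was in channel 1 on arrays 1 to 3 and in channel 2 on the swapped arrays. The labels give the genotype only, and strain, age, sex, allele and the size of the pool are not stated. The pool was the only control, so its own spread is left out. Arrays that share a number were averaged, which left 3 replicates. Nothing in the labels says that different numbers are different mice. A p-value here measures only how far these samples vary, and that variation may be technical. The other 15 arrays were 5 each from cortex, hippocampus and cerebellum, and a swapped cortex array without a number counted as its own replicate. All of them entered the same fit. Each SE and p-value below therefore rests on the spread within all the regions together. The n beside them counts only the replicates of brain stem-diencephalon.

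NHE1 is a sodium-hydrogen exchanger. It sits in the plasma membrane of most cells, takes in sodium and expels protons, and so raises the pH of the cytoplasm and helps to set cell volume. Mice without it are known for ataxia and seizures, and loss of neurons has been described in their cerebellum and brain stem. The brain stem holds the nuclei of the cranial nerves, monoamine neurons and the fibre tracts, and the diencephalon holds thalamus and hypothalamus. An array ratio holds no level of expression, so the labelled tissue could not be checked by the abundance of its markers.

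All values are log2 ratios of null over wild type after the swapped arrays were multiplied by -1 and each array was centred on its median. That direction is only likely, since the order of the channels in the deposited ratio is not stated. If it is the opposite, every sign turns. As deposited, before any turning, arrays of one orientation correlated across probes at 0.403 to 0.588. Pairs of opposite orientation, in which a difference between genotypes takes opposite signs, lay between -0.0908 and 0.272. The fit therefore held a term for orientation, whose median size was 0.0975, against 0.116 for the ratio of the region. In bulk tissue, fewer cells of a type and less RNA per cell cannot be told apart.

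Swapped array 2 stood apart from the other arrays of the region. It held 6806 values of 15245 probes, where the other 4 held 11541 to 13142, and the SD of its values was 0.544 against 0.282 to 0.322. Its values are nearly those of swapped array 1 of cerebellum. On 6748 shared probes the correlation of both copies was 0.9952, and for 82.1% of probes the difference was within 0.001 of the median difference. As deposited, the array correlated at 0.674 with the other swapped array of cerebellum and at 0.52 with swapped array 1 of brain stem-diencephalon. Among 227 features that differed between the regions at an unadjusted p under 0.05 on the remaining arrays, its value was closer to cerebellum for 171 (75.3%). Over all 5549 features with a value the share was 60.3%. The labels alone set the groups here, so the array was kept, and the calls and the main lists are given with and without it. Unless stated otherwise, without it means that both copies, under cerebellum and under brain stem-diencephalon, were left out of the fit.

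Single genes, chosen after their values were seen, differed in how they placed the repeated array. Th, which codes for tyrosine hydroxylase, the rate-limiting enzyme of catecholamine synthesis, was at 1.49 on the repeated array. It was at -0.08, 0.42 and 0.16 on arrays 1, 2 and 3 and at -0.16 on swapped array 1, while the other cerebellum arrays lay between 1.35 and 2.16. Ttr, the gene of the choroid plexus carrier protein transthyretin, was at -2.71 on the repeated array. Array 2 of brain stem-diencephalon, of the same number, was at 1.87 and array 2 of cerebellum at -2.67. The other cerebellum arrays were at 0.58, -0.23 and -0.40. For both genes the repeated array lay outside the range of the other brain stem-diencephalon arrays. For Th it lay within the range of the other cerebellum arrays, and for Ttr beside 1 of those 4.

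Eif2s3y, a Y-linked gene for a translation initiation factor subunit, differed in sign between the arrays of the region. It was at -0.65 on array 1 and -0.44 on swapped array 1, and at 0.93 on array 2, 1.33 on array 3 and 1.71 on the repeated array. In the other regions the number 1 arrays were at -1.36 in cortex, -1.29 and -0.99 in hippocampus and -0.77 on array 1 of cerebellum. Each array of another number with a value was above 0, as was the swapped cortex array without a number. The repeated array, at 1.71, is the exception under its cerebellum label, where it is number 1. For this gene it lay with the arrays of numbers 2 and 3 in both regions, so Eif2s3y does not side with cerebellum as Th does. The X-linked gene Xist did not split by number in this region. Its probes lay between -0.28 and 0.27 on arrays 1 to 3 and swapped array 1, and the repeated array was at 0.29. The labels do not state the sex of the mice or of the pool, and the part of sex in the results was not tested.

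**Figure D1:**
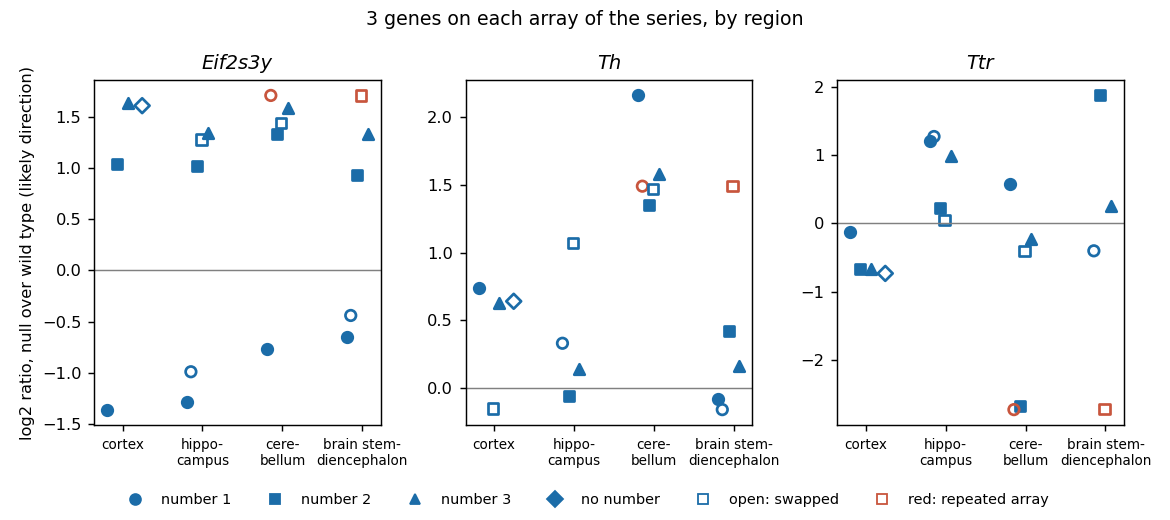
Log2 ratio of null over wild type (y axis, likely direction) of Eif2s3y, Th and Ttr on each array with a value, by region (x axis). Symbols give the number in the title, with diamonds for the swapped cortex array that has none. Open symbols are swapped arrays and red marks the array found under both cerebellum and brain stem-diencephalon. In brain stem-diencephalon Eif2s3y is below 0 on both arrays of number 1, and the repeated array is at 1.49 for Th and -2.71 for Ttr.

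The first comparison asked which genes differ between null and wild-type brain stem-diencephalon. The 8319 features tested were 5255 genes and 3064 unnamed probes, which lack a single gene symbol. Of these features 30 (0.361%) passed an adjusted p of 0.05 in limma. Among the 30, 26 (0.313%) were lower and 4 (0.0481%) were higher. The 30 were 13 genes and 17 unnamed probes, and all 17 unnamed probes were lower. At an unadjusted p under 0.05, 595 features (7.15%) were higher and 532 (6.39%) lower. Without the repeated array 25 features passed, 1 higher and 24 lower, and 23 of them were among the 30. Only 19 of the 30 had a value on the repeated array at all.

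Rbm3, which codes for an RNA-binding protein induced by mild cold, was the highest gene past the threshold. It was at 1.25, 1.60 and 1.78 on arrays 1, 2 and 3, at 1.15 on swapped array 1 and at 1.12 on the repeated array. All 5 arrays were well above 0, with arrays 2 and 3 highest. The gene rose by 1.43 ± 0.15 (SE, n = 3), a 2.69-fold difference (adjusted p = 0.000355), and by 1.56 without the repeated array (adjusted p = 0.00112). The call was lost with a robust, trended prior variance (adjusted p = 0.412) and with the sign of the channel 1 arrays of number 1 turned (1.10, adjusted p = 0.505), while over 27 alternatives the adjusted p ran from 9.67e-06 to 0.505. Cirbp, a cold-induced relative of Rbm3, was at 0.27, 0.24, 0.34 and 0.39 on the first 4 of these arrays and at 0.77 on the repeated array. Its fitted value of 0.36 ± 0.09 (n = 3) did not pass (adjusted p = 0.138), and it was 0.24 without that array.

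The other 3 genes that were higher lost their call without the repeated array. Herc1, a large ubiquitin ligase of the HECT class, was at 1.18 and 1.12 on arrays 2 and 3, 0.71 on swapped array 1 and 1.76 on the repeated array. It rose by 1.10 ± 0.21 (n = 3, adjusted p = 0.046), against 1.02 without that array (adjusted p = 0.0722). Klhl24, a Kelch-family adaptor of cullin ubiquitin ligases, rose by 0.81 ± 0.15 (n = 3, adjusted p = 0.046). It was at 0.67 and 1.0 on arrays 2 and 3 and 0.57 on swapped array 1, with no value on the other arrays. Its value did not move without the repeated array, but the adjusted p became 0.0573. With only the brain stem-diencephalon copy left out, the call was kept (adjusted p = 0.0495). A second Klhl24 probe that missed the filter lay between -0.11 and 0.29. Rpl17-ps5, a pseudogene close in sequence to the ribosomal protein gene Rpl17, rose by 0.60 ± 0.10 (n = 3, adjusted p = 0.0235) and was at 0.42 without the array (adjusted p = 0.123). It was at 0.19, 0.48 and 0.50 on arrays 2 and 3 and swapped array 1 and at 1.42 on the repeated array, and RNA of Rpl17 may reach this probe.

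The largest differences were on the low side. There were 15 features past the threshold below -1.5, of which 11 were unnamed probes and 4 were genes. Over the 15, the median was -1.26 on array 1 with 8 values and -1.77 on array 2, where all had one. It was -2.39 on array 3 with 15 values, -2.05 on swapped array 1 with 14 and -2.55 on the repeated array with 9. Array 1 was the weakest on this group, and no value of the 15 features on any of the 5 arrays lay above -0.87.

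Jag1, which codes for a membrane-bound ligand of Notch receptors, was at -1.47 on array 2, -2.15 on array 3 and -2.14 on swapped array 1. Array 1 and the repeated array held no value for it. It fell by 2.01 ± 0.19 (SE, n = 3), which is 4.02-fold (adjusted p = 0.000328), and it kept its call under each of the 26 alternatives that could test it. Msantd1, a protein with a Myb/SANT-like domain, was at -1.29, -1.58 and -2.53 on arrays 1 to 3, -2.46 on swapped array 1 and -3.45 on the repeated array. The difference was smallest on array 1 and largest on the repeated array. Msantd1 fell by 2.39 ± 0.26 (5.26-fold, n = 3, adjusted p = 0.000416), and was at -2.25 without that array (adjusted p = 0.00914).

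Khdc1b, of a family of KH-domain RNA-binding proteins, was at -1.84 on array 2, -2.39 on array 3 and -1.95 on swapped array 1. It fell by 2.06 ± 0.21 (4.18-fold, n = 3, adjusted p = 0.000448). Another Khdc1b probe that missed the filter was at -0.06 on array 3 and -0.55 on swapped array 1, so the probes of the gene did not match. Xpo4, an export receptor of the nuclear pore, was at -1.58, -2.01 and -2.46 on arrays 1 to 3 and -1.86 on swapped array 1. It fell by 2.08 ± 0.32 (4.22-fold, n = 3, adjusted p = 0.00643). A second Xpo4 probe that missed the filter lay between -0.33 and -0.16 on its 3 arrays of the region. The values of both genes therefore rest on 1 probe each, and other probes of the same gene did not show them. Jag1 and Msantd1 also rest on 1 probe each, with no other probe to compare. The same holds for the remaining genes past the threshold apart from Klhl24.

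The 17 unnamed probes that fell ranged from -0.49 to -3.49. The lowest was at -1.16, -4.56 and -3.01 on arrays 1 to 3 and -4.74 on the repeated array, and its call ended without that array (adjusted p = 0.141). The other 16 kept theirs.

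**Figure D2:**
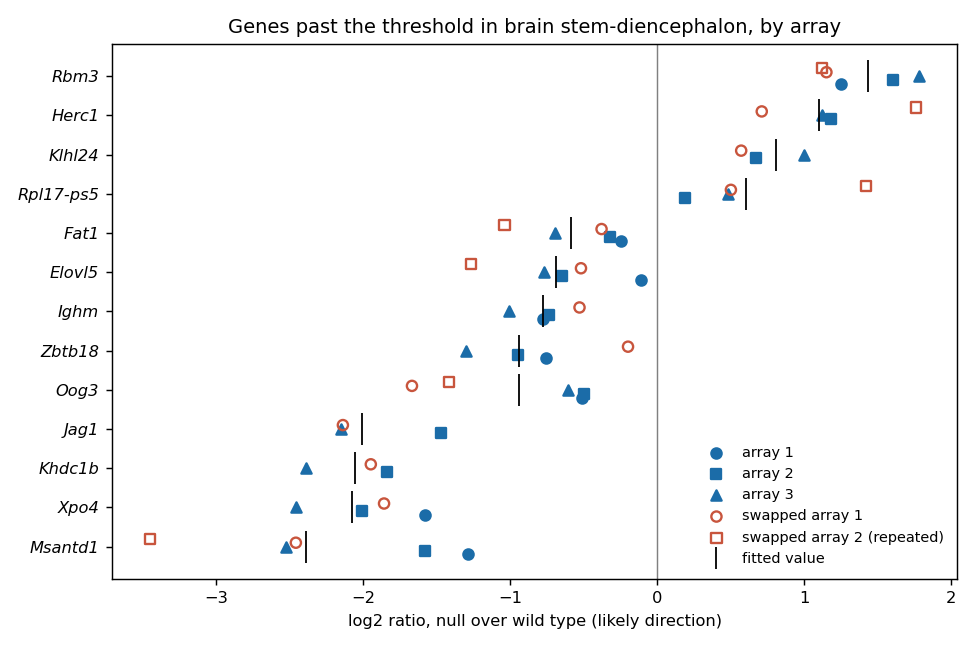
Log2 ratio of null over wild type (x axis, likely direction) of the 13 genes past the threshold (y axis) on each of the 5 arrays, with the fitted value as a bar. Jag1, Khdc1b, Xpo4 and Msantd1 lie below -1 on each array that holds a value, and all 5 arrays of Rbm3 lie above 1.

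The other 5 genes that fell did so by less than 2-fold. Oog3, of the oogenesin family known from oocytes, fell by 0.94 ± 0.12 (1.92-fold, n = 3, adjusted p = 0.00149). It was at -0.51, -0.50 and -0.61 on arrays 1 to 3 but at -1.67 and -1.42 on the swapped arrays, so its size differed by orientation. It was at -0.89 without the repeated array (adjusted p = 0.0253). Ighm, the constant region of the IgM heavy chain, was at -0.78, -0.74 and -1.01 on arrays 1 to 3 and -0.53 on swapped array 1. It fell by 0.78 ± 0.12 (1.72-fold, n = 3, adjusted p = 0.0149) and kept its call without the repeated array, which held no value for it (adjusted p = 0.0167). Tap2, B2m and Tapbp, the other 3 measured genes of immunoglobulins and antigen presentation, were at 0.23, 0.30 and 0.04 and did not pass.

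Elovl5, which elongates polyunsaturated fatty acids, was at -0.11, -0.65 and -0.77 on arrays 1 to 3, -0.52 on swapped array 1 and -1.27 on the repeated array. It fell by 0.69 ± 0.12 (1.62-fold, n = 3, adjusted p = 0.0132). Its value without the repeated array was -0.59 (adjusted p = 0.0704). Zbtb18, a zinc-finger repressor needed for neurons of the cortex, fell by 0.94 ± 0.19 (1.91-fold, n = 3, adjusted p = 0.0487). It was at -0.76, -0.95 and -1.30 on arrays 1 to 3 and at -0.20 on swapped array 1, and the repeated array held no value for it. Its fitted value was the same without that array, while the adjusted p became 0.061. Fat1, an atypical cadherin, fell by 0.59 ± 0.11 (n = 3, adjusted p = 0.046) with values from -0.25 on array 1 to -1.04 on the repeated array. It was at -0.52 without that array (adjusted p = 0.202). These 3 calls ended without the repeated array, though only Elovl5 and Fat1 have a value on it. With only its brain stem-diencephalon copy left out, Elovl5 kept its call (-0.58, adjusted p = 0.0495). Fat1 and Zbtb18 did not (adjusted p = 0.17 and 0.0527).

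In the other direction, Erbb3 and Naip3 passed only without the repeated array. Erbb3, a receptor for neuregulins found on glia of the oligodendrocyte lineage, was at -0.13 and -0.29 on arrays 2 and 3, -0.86 on swapped array 1 and -0.19 on the repeated array. Its fitted value was -0.44 (adjusted p = 0.108) and -0.53 without the array (adjusted p = 0.0162). Naip3, of the NLR family of innate immune sensors, was at -0.37, -0.69, -0.87 and -0.44 on the first 4 arrays and 0.20 on the repeated array. It moved from -0.51 (adjusted p = 0.108) to -0.71 (adjusted p = 0.0137), and its 3 probes differed, with medians over all arrays of -0.35, -0.09 and -0.42.

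**Figure D3:**
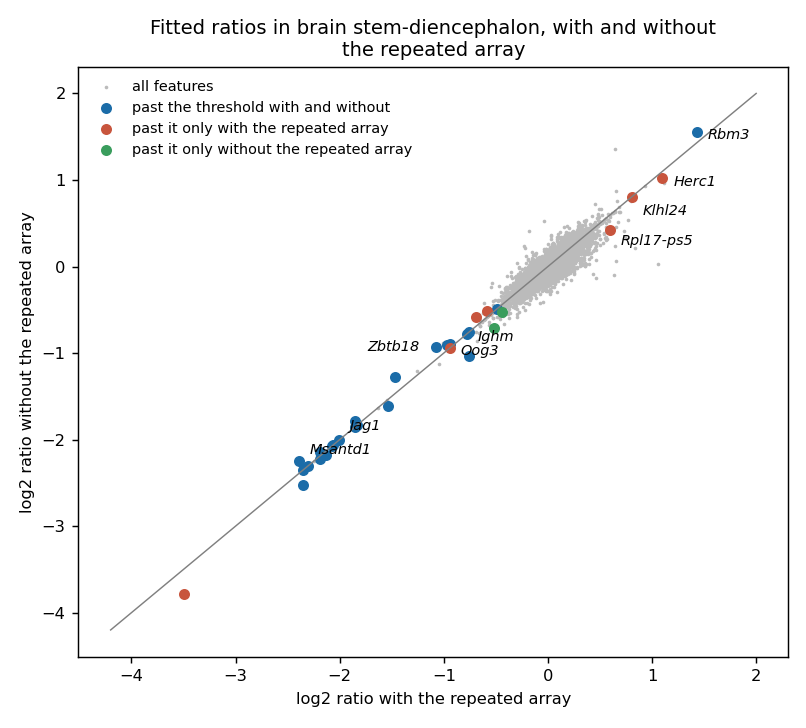
Fitted log2 ratios of all features in brain stem-diencephalon with the repeated array (x axis) and without it (y axis), with the line of equality. The features past the threshold both ways (blue, 23) include Rbm3, Jag1, Msantd1, Oog3 and Ighm, while Herc1, Klhl24, Rpl17-ps5 and Zbtb18 pass only with the array.

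Of 4691 features with a value on all 5 arrays, 662 (14.1%) had one sign on all 5, 391 of them higher and 271 lower. Among genes this was 466 of 3071, 296 higher and 170 lower. The 15 lowest of these included Msantd1, Oog3, Elovl5 and Fat1, and the 15 highest included Rbm3. None of the other 25 passed the threshold in this fit. Car7, a carbonic anhydrase of the neuronal cytoplasm, was at -0.20, -0.48 and -0.49 on arrays 1 to 3, -0.48 on swapped array 1 and -1.21 on the repeated array (fitted -0.59 ± 0.12, adjusted p = 0.0634). Without that array it was at -0.49 (adjusted p = 0.209). Hsph1, a chaperone of the Hsp110 class, was at -0.17 on array 1 and between -0.74 and -0.66 on the other 4 (fitted -0.67 ± 0.18, adjusted p = 0.148, and -0.77 without the repeated array). That last value is below each of its array values, since the fit also holds the orientation term. Mvd, a decarboxylase of the mevalonate pathway to cholesterol, was at -0.65 ± 0.18 (adjusted p = 0.15) with values from -1.0 to -0.15, and at -0.69 without the repeated array.

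The other low genes short of the threshold differed in function. Hnrnpa2b1, a nuclear RNA-binding protein, was at -0.55, Srpk1, a kinase of splicing factors, at -0.52, and Lsm14b, a protein of messenger ribonucleoprotein particles, at -0.68. Tomm34, a cochaperone of mitochondrial import, was at -0.69, Agpat1, which makes phosphatidic acid, at -0.56, and the zinc-finger protein Pogz at -0.57. Fam107b was at -0.49 and the pseudogene Pisd-ps3 at -1.25. Array 1 was nearest to 0 for Pisd-ps3, Tomm34, Lsm14b, Hsph1, Mvd, Car7, Pogz, Agpat1 and Srpk1, but not for Hnrnpa2b1 and Fam107b.

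Among the high genes short of the threshold, Serpinb1a, an inhibitor of serine proteases, was at 1.06, 0.73 and 0.30 on arrays 1 to 3 and 0.95 and 0.82 on the swapped arrays (fitted 0.69 ± 0.14, adjusted p = 0.0662). Lxn, which codes for the carboxypeptidase inhibitor latexin, was at 0.80, 0.57, 0.42, 0.58 and 0.66 in the same order (fitted 0.58 ± 0.12, adjusted p = 0.0662). Unlike the low genes above, both were highest on array 1. Hebp1, a heme-binding protein, was at 0.10 to 0.61 on 4 arrays and at 2.31 on the repeated array, so its fitted 0.73 became 0.41 without it. Klhl13, another Kelch-family adaptor, was at 0.27 to 0.36 on 4 arrays and 1.36 on the repeated array. Cops2 and Cops6, subunits of the COP9 signalosome, which removes Nedd8 from cullins, were at 0.51 and 0.48. Eif3m, a subunit of a translation initiation factor, was at 0.58, Ppp3cb, a catalytic subunit of calcineurin, at 0.49, and Mpc1, a subunit of the mitochondrial pyruvate carrier, at 0.48. Gosr2, a SNARE of the Golgi, was at 0.54, Phf21a, a reader of unmethylated histone H3, at 0.48, Uri1, a prefoldin-like protein, at 0.48, Fam126b at 0.65 and Fam76a at 0.52.

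The partners and relatives of the missing exchanger come first among the pathway lists. Here and below, a gene counts as measured if it passed the filter, which asked for values in every region. Of 42 acid-base transporters and carbonic anhydrases, 15 were measured, and none passed the adjusted threshold. Their median was 0.00753, against 0.0123 over all features, with 1 higher and 2 lower at an unadjusted p under 0.05, and it was -0.0272 without the repeated array. Chp1 and Tesc code for calcium-binding proteins that bind NHE1. Chp1 was at 0.06 and 0.35 on arrays 1 and 3 and 0.51 on swapped array 1, and Tesc was between -0.46 and -0.14 on all 5 arrays. The fitted values were 0.45 ± 0.14 for Chp1 (n = 2, adjusted p = 0.188) and -0.44 ± 0.17 for Tesc (n = 3, adjusted p = 0.279), so the partners lay on opposite sides of 0 and neither passed. Of the vacuolar proton ATPase, which acidifies vesicles and lysosomes, 10 of 22 subunits were measured and 7 (70%) were above 0 (median 0.123). Over all features 52.8% were above 0, and without the repeated array 6 of the 10 subunits were. Atp6v0d1 was at 0.44 (adjusted p = 0.159), but at 0.19 without the repeated array, and Atp6v1a was at 0.37 (adjusted p = 0.305). Atp6v0b went the other way, at -0.28 (adjusted p = 0.409).

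Of 32 pumps and exchangers of sodium and calcium, 10 were measured and none passed. Slc12a2, the sodium-potassium-chloride cotransporter that loads cells with chloride, was at 0.47, 0.57 and 0.37 on arrays 1 to 3 and 0.26 on swapped array 1. Its fitted value was 0.60 ± 0.13 (n = 3, adjusted p = 0.0827), above the value on each array, since the fit also holds the orientation term. The sodium pump subunits Atp1b3 and Atp1b2 were at 0.29 and -0.35. Fxyd6, a regulator of that pump, was at 0.13 to 0.39 on 3 arrays and 1.87 on the repeated array. Of 72 voltage-gated cation channels only 7 were measured, and Kcnq1, a potassium channel, was at 0.53 with arrays 1 to 3 below 0 and both swapped arrays above it.

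Ribosomal protein genes lay above 0 as a group without any one of them passing. Of 82 cytosolic ribosomal proteins 67 were measured, and 62 (92.5%) were above 0, against 52.8% of all features. Their median was 0.162. The median over the list was 0.25, 0.128 and 0.162 on arrays 1 to 3 and 0.133 and 0.246 on the swapped arrays, so it was above 0 on each. In limma 0 passed the adjusted threshold, while 21 (31.3%) were higher and 0 lower at an unadjusted p under 0.05. Over all features 7.15% were higher and 6.39% lower at that p. Rpl6, Rpl32, Rpl17 and Rpl10 were at 0.35, 0.38, 0.34 and 0.39, with adjusted p between 0.118 and 0.159. Without the repeated array 55 of the 67 were above 0 and 9 were higher at an unadjusted p under 0.05. Over all 8319 features these counts were 4225 and 531. Ribosomal protein genes have many near-identical pseudogenes, so single probes may take up RNA of more than 1 of them.

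Of 60 proteasome and ubiquitin genes 46 were measured, 32 above 0, with a median of 0.12. In limma 0 passed, with 4 higher (8.7%) and 1 lower (2.17%) at an unadjusted p under 0.05, against 7.15% and 6.39% of all features. The higher share was near that of all features. Without the repeated array 35 were above 0. Nedd8, the ubiquitin-like protein that activates cullin ligases, was at 0.08, -0.62 and -0.31 on arrays 1 to 3 and -1.10 on the repeated array (fitted -0.65 ± 0.16, adjusted p = 0.108). Psme1, a proteasome activator subunit, was at 0.24 to 0.59 on the 5 arrays (fitted 0.47 ± 0.13, adjusted p = 0.142). The activator was above 0 on each array, while Nedd8 was on both sides of 0.

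Over all features 3928 of 8319 were below 0 and 6.39% were lower at an unadjusted p under 0.05. Of 41 measured chaperones 25 were below 0 (median -0.0366), with 0 called in limma, 7 lower (17.1%) and 1 higher at that p. There were 5 lower both without the repeated array and with arrays scaled to one spread, where 19 of the 41 were above 0. Hspe1, the mitochondrial cochaperonin, was at -0.38 and Ahsa1, an activator of Hsp90, at -0.27. The list median was 0.148 on array 1 and -0.227 on the repeated array, so the arrays did not share a sign. Of 48 measured genes of oxidative phosphorylation 32 were below 0 (median -0.0393), with 0 called, 5 lower (10.4%) and 2 higher at an unadjusted p under 0.05. Without the repeated array the median was -0.0901, with 8 lower. The median of the list was 0.0286 on array 1 and below 0 on the other 4. Ndufa13, of complex I, was at -0.38, -0.28 and -0.11 on arrays 1 to 3 and -0.31 and -0.18 on the swapped arrays (fitted -0.31 ± 0.10, adjusted p = 0.184). Cox8a, of cytochrome c oxidase, was at -0.52 and Atp5j2, of the ATP synthase, at -0.53, while Sdhb, of succinate dehydrogenase, was at 0.38 with 1.85 on array 1 alone.

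Sterol and fatty acid synthesis had 21 of 45 genes measured, 12 below 0, with a median of -0.11. Elovl5 was the 1 gene that passed, and at an unadjusted p under 0.05 there were 5 lower (23.8%) and 1 higher (4.76%). Over all features 6.39% were lower and 7.15% higher. Without the repeated array the median was -0.067, none passed and 6 were lower. Hmgcs1, which makes the precursor of mevalonate, was at -0.27, -0.27, -0.25, -0.33 and -0.34 on the 5 arrays, the narrowest spread among the genes named from this list. Its fitted value of -0.26 ± 0.09 did not pass (adjusted p = 0.219). Fasn, the fatty acid synthase, was at -0.25 ± 0.09 (adjusted p = 0.251). The cytoskeleton list had 36 of 67 genes measured, 18 above and 18 below 0, and none passed. Marcksl1 and Marcks, related actin-binding substrates of protein kinase C, were at -0.41 and -0.35, and Epb41l1, which links membranes to the cytoskeleton, at 0.65 with 1.12 on the repeated array.

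Of 28 genes of the Notch pathway 8 were measured, with a median of -0.104, and -0.0902 without the repeated array. Jag1 was the 1 gene that passed. Ncstn, the nicastrin subunit of the gamma-secretase that cleaves Notch, was at -0.43 (adjusted p = 0.186), with -0.51 and -1.27 on the swapped arrays and between -0.13 and -0.02 on the others. Rbpj, the DNA-binding partner of Notch, was at -0.20 and Numb, an inhibitor of the pathway, at 0.17. None of the 8 immediate early genes measured of 27 passed at an adjusted or an unadjusted p of 0.05, and their median was 0.0666.

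Genes of synapses and of the region's own neurons were thinly covered among the features tested. The filter asked for values in every region, so genes with values in brain stem-diencephalon alone are left out. With the filter set on brain stem-diencephalon only, 10312 features were tested. Of 36 genes of the synaptic vesicle cycle 12 were measured, and none passed. Rph3a, a vesicle-bound partner of Rab3, was between -0.72 and -0.18 on the 5 arrays (fitted -0.38 ± 0.11, adjusted p = 0.158). Syt11, a synaptotagmin, was at 0.48, 0.97 and 0.75 on arrays 1 to 3 but -0.02 and 0.15 on the swapped arrays. Of 42 genes of glutamate signalling 7 were measured, with Nsf, the ATPase that recycles SNARE complexes, at 0.31 and Homer2, a postsynaptic scaffold, at -0.25. Of 28 genes of glycine and GABA signalling and of 15 cholinergic markers, 0 were among the features tested.

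Of 24 monoamine markers 2 were measured, Th at 0.31 and Maoa, which breaks down monoamines, at 0.21. Neither passed, and they were at 0.04 and 0.13 without the repeated array. Of 36 neuropeptide genes 2 were measured, Scg3, of secretory granules, at 0.19 and Trh, thyrotropin-releasing hormone, at 0.03. Of 41 markers of brain stem and diencephalon neurons 5 were measured, and none passed. Their median was -0.0559, and 0.0154 without the repeated array. Sncg, which codes for gamma-synuclein, had a fitted value of -0.22. It was at 0.10, 0.09 and 0.10 on arrays 1 to 3 and at -0.30 and -0.72 on the swapped arrays. Hoxb8, a transcription factor of the hindbrain and spinal cord, was fitted at -0.17. That is below each of its array values, which ran from -0.10 to 0.02, since the fit also holds the orientation term. Prkcd, a protein kinase C abundant in thalamus, was at 0.10. Rora, an orphan nuclear receptor, had the largest fitted value, 0.35 ± 0.28 (n = 2), with -0.03 and 0.34 on arrays 1 and 3 and 0.19 on swapped array 1. Through the same term, the fitted value lay just above each of these.

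Markers of other cells gave no call. Myelin and oligodendrocytes had 4 of 30 markers measured, with Mbp, the myelin basic protein, at 0.11 and Gsn at -0.24. Astrocytes had 10 of 22 (median 0.0206), with Sparcl1 between 0.26 and 0.43 on all 5 arrays and a fitted value of 0.31 (adjusted p = 0.362). Microglia had 7 of 21. Their median was 0.106, and -0.0181 without the repeated array, on which the list's median was 0.467 against -0.0461 to 0.159 on the other arrays. C1qa, a complement subunit of microglia, was at 1.06 there and at -0.15 to 0.35 elsewhere. Vessels and erythrocytes had 7 of 30, 3 of them above 0 (median -0.0072). The endothelial adhesion molecule Pecam1 was at -0.42 (adjusted p = 0.148) and Hbb-b1, a beta-globin, at 0.36. Choroid plexus and meninges had 7 of 25, with Ttr at -0.19, which became 0.41 without the repeated array. Neurons of the cerebellum had 4 of 22, with Car8, of Purkinje cells, at 1.15 on the repeated array and between -0.72 and -0.13 on the other 4. Neurons of the forebrain had 2 of 31, Dkk3 at 0.28 and Ppp1r1b at -0.19. The part of other cell types in the differences above was not tested.

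**Figure D4:**
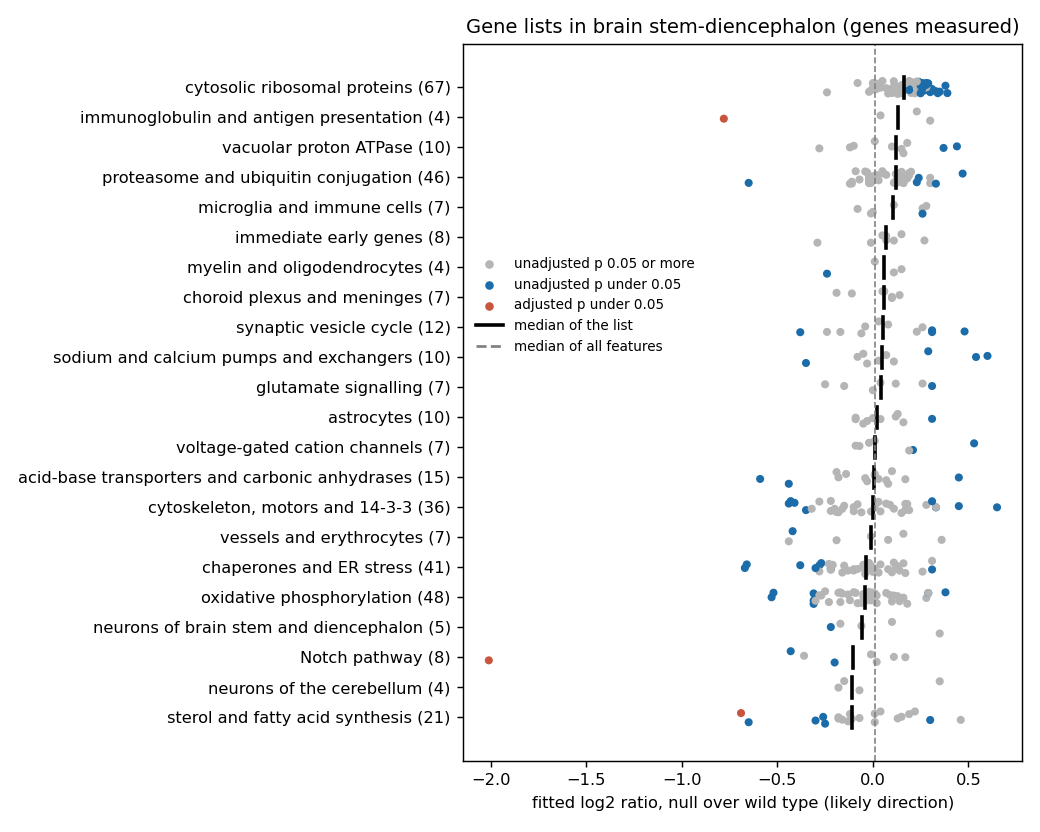
Fitted log2 ratio of null over wild type in brain stem-diencephalon (x axis, likely direction) of each measured gene of the lists with at least 4 (y axis, number measured in brackets), with list medians as black bars and the median of all features, 0.0123, as a dashed line. Of 67 ribosomal protein genes 62 lie above 0, and the 3 points past the adjusted threshold are Jag1, Elovl5 and Ighm.

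The next comparisons asked whether the null-to-wild-type ratio of brain stem-diencephalon differed from that of the other regions. The regions share one fit, and the repeated array counts in both cerebellum and brain stem-diencephalon. In limma 0 of 8319 features (0%) passed against the mean of the other regions, with 270 at an unadjusted p under 0.05. Against cortex 0 passed (0%), with 488 at an unadjusted p under 0.05. Against hippocampus 0 passed (0%), with 261, and against cerebellum 0 passed (0%), with 238. Without the repeated array 2 features passed against cerebellum, Th and an unnamed probe, and 0 in the other 3 comparisons.

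Th is the named gene of that pair. Its ratio was 0.31 in brain stem-diencephalon and 1.58 in cerebellum with the repeated array, a difference of -1.27 ± 0.26 (adjusted p = 0.999). Without that array the ratios were 0.04 and 1.60, and the difference of -1.56 passed (adjusted p = 0.0282). In cortex and hippocampus Th was at 0.47 and 0.33.

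The genes past the threshold in brain stem-diencephalon had the same sign in all 4 regions. Rbm3 was at 1.43 in brain stem-diencephalon, 1.38 in cerebellum, 1.58 in cortex and 1.72 in hippocampus. Jag1 was at -2.01 in brain stem-diencephalon, -2.05 in hippocampus and -2.15 in cerebellum but at -0.91 in cortex. That gap of -1.10 ± 0.24 to cortex had the smallest p of its comparison and did not pass (adjusted p = 0.759). Khdc1b, Xpo4 and Msantd1 were likewise nearest to 0 in cortex, at -1.10, -0.82 and -1.13. Elovl5 varied less, from -0.86 in cerebellum to -0.59 in hippocampus.

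Ighm and Herc1 were farther from 0 in brain stem-diencephalon than elsewhere. Ighm was at -0.78 there, against -0.31 in cortex, -0.20 in hippocampus and -0.10 in cerebellum. The difference from the mean of the other regions was -0.58 ± 0.13 and did not pass (adjusted p = 1). Herc1 was at 1.10, against 0.84 in cerebellum, 0.40 in cortex and 0.07 in hippocampus. Klhl24 was at 0.81, with 0.63 in cortex, 0.41 in cerebellum and 0.20 in hippocampus. A gene past the threshold in one region and short of it in another was therefore not shown to differ between them.

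By the smallest p values, Pa2g4, a growth-regulating RNA-binding protein, was at 0.13 in brain stem-diencephalon and between -0.38 and -0.23 elsewhere. Tbc1d9b, of a family that switches off Rab proteins, was at 0.10 against -0.60 to -0.11, and Hnrnpd, which binds AU-rich messenger RNA, at 0.21 against -0.42 to -0.31. All 3 stood above the other regions, and none passed (adjusted p = 1). Against cortex, Zfp84, Cks2, a subunit of cyclin-dependent kinases, and Ier5 differed by -0.58, -0.93 and 0.75 (adjusted p = 0.759 each). Against hippocampus, Prkcd differed by 1.05 ± 0.18 (adjusted p = 0.319), from a ratio of 0.10 in brain stem-diencephalon and -0.95 in hippocampus. Fth1, the ferritin heavy chain, and the integrin Itga1 differed from hippocampus by -0.52 and -0.48 (adjusted p = 1 each).

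**Figure D5:**
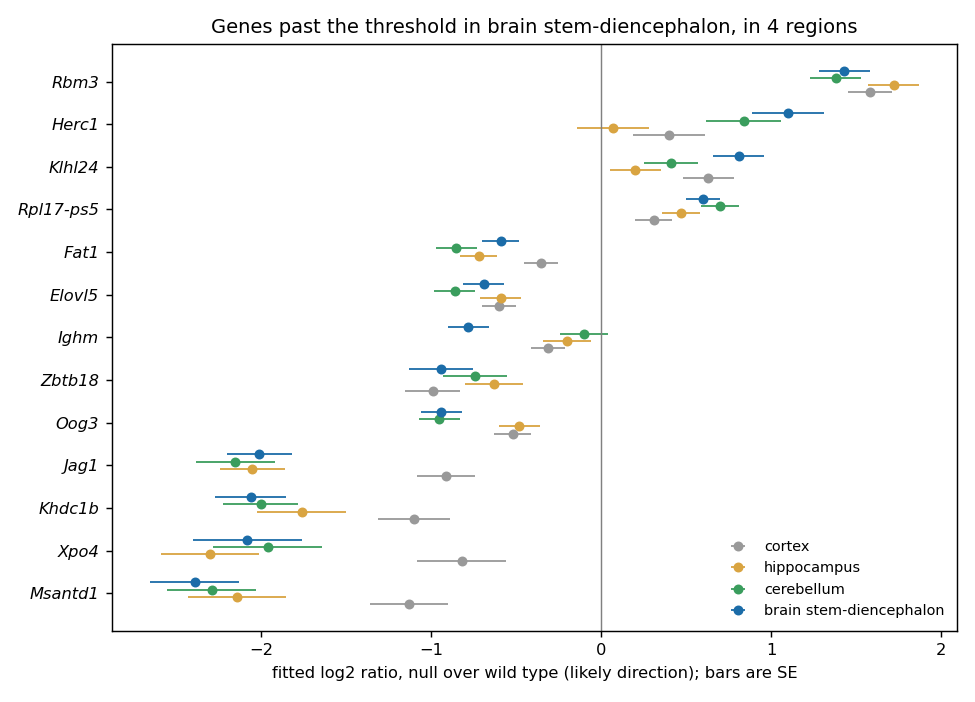
Fitted log2 ratio of null over wild type (x axis, likely direction; bars are the SE) of the 13 genes past the threshold in brain stem-diencephalon (y axis) in each of the 4 regions. Jag1, Khdc1b, Xpo4 and Msantd1 lie nearer to 0 in cortex than in the other regions, and Ighm is at -0.78 in brain stem-diencephalon against -0.31 to -0.10 elsewhere.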

How the data were processed

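The authors deposited 1 log ratio per probe and array, already centred near 0, and these were taken as log2. The log base, channel order and normalization are not stated in the labels or the file. The labels give the orientation of each array, and the number of each except a swapped cortex array, which was taken as a replicate of its own. It may be the swap of another cortex array. Swapped arrays were turned, arrays centred on their median and arrays of one number averaged. Of 15245 probes, 9701 passed the filter, which asked of each region at least 3 arrays with a value, among them at least 1 of each orientation. Of all probes, 9604 had a single gene symbol, 213 several and 5428 none, and 9496 symbols matched a current gene (names only, from GRCm38.p6). Probes of a gene were averaged, giving 8319 features. A linear model over the 13 replicates that the 20 arrays gave held a term per region and one for orientation (limma 3.58.1, R 4.3.3, prior degrees of freedom 6.04, residual 8), with Benjamini-Hochberg adjustment over all features and a threshold of 0.05. The fit was tested on simulated data in which replicates were independent and no array was repeated. That test cannot give the error rate on the real arrays. Precision is limited by the number of arrays.

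The genes named are all that passed, the 15 highest and 15 lowest with one sign on all 5 arrays, up to 4 per list and 4 per comparison of regions by smallest p, and those whose call depends on the repeated array. RIKEN clones and gene models were not named, and the targeted gene is not reported here. The members and lists were chosen with earlier results of these data known. Alternatives covered the repeated array, orientation, centring, scaling, filters, moderation, a replicate block and leaving out each replicate.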

Additional observations from a re-analysis of the deposited data

Results flagged for a closer look

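Of 39 sets of 5 array values tested for an extreme array by Dixon's criterion, 6 passed. For sets not chosen by their values, chance gives about 1 in 20. The genes that passed, named below, were chosen by their values on these same arrays, so that rate does not apply to them. In 5 of them the extreme array was the repeated one: it had the fewest values (6806 probes), the widest spread (SD 0.544), the lowest Car7 (-1.21) and the highest Hebp1 (2.31) and Klhl13 (1.36). In the other, Hsph1 was nearest to 0 on array 1 (-0.17).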

How the results depend on the processing

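The 30 calls in brain stem-diencephalon became 60 without the channel 1 arrays of number 1 in every region and 3 with their sign turned. They became 12 when the test ran only on the 2060 features with a value on all 20 arrays, and 16 with a robust, trended prior variance, none of them higher. With arrays one by one and a random block per number there were 91. The 12 came from fewer features tested, and 7 of them were among the 30. For none of these changes was the cause tested. Leaving out 1 replicate gave 17 to 38 calls, with 18 without replicate 2 and 17 without replicate 3 of the region itself. Leaving out the cortex array that has no number gave 25, of which 23 were among the 30. Against cerebellum, 2 features passed without the repeated array, and 2 with it left out of brain stem-diencephalon only. Leaving out 1 replicate gave 0 to 2 calls there (2 without replicate 2 of brain stem-diencephalon) and 0 to 2 against cortex (2 without replicate 2 of cortex). With the replicate number as a block, 282 features passed in brain stem-diencephalon and 8 against cortex. The reported fit does not treat equal numbers in different regions as pairing. Deviations of same-numbered replicates correlated at -0.0956 to 0.513 over 9 pairs (median 0.174, 6 above 0.1). Those of different numbers had a median of -0.104 over 21 pairs, 4 above 0.1. These include the pairs with the cortex array that has no number, at -0.298, -0.0331 and 0.399, whose match is unknown. Same-numbered replicates were thus more alike on the median, and the reported counts depend on leaving the numbers out of the fit. Of the 25 genes with one sign on all 5 arrays that did not pass, 19 passed with the replicate block. The other counts stayed within 1.5 times of those reported, and no gene named with a call changed sign. Herc1, Klhl24, Zbtb18 and Fat1 kept their calls in 11 or 12 of 26 alternatives, Rpl17-ps5 in 17, Ighm in 20, Elovl5 in 21 of 27 and Xpo4 in 23. Ribosomal proteins above 0 numbered 54 to 63 of 67 over the alternatives that tested the same 67, with 54 (median 0.11) when the number 1 arrays were turned, 54 without replicate 1 of the region, 55 without the repeated array and 59 with the replicate block.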
